A study of Mus musculus with 48 samples.

Results

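C/EBPα, the product of Cebpa, was mapped in mouse liver at 5 stages, and the regions it occupied at all of them are described here. The fetal stages were 15.5 days (E15.5) and 18.5 days (E18.5) of gestation. The stages after birth were 0.5 days (P0.5), 14 days (P14) and 60 days (P60). A stage region was a stretch covered by overlapping peaks of both replicates of a stage, and stage regions of different stages were merged where they overlapped by at least 1 bp. Of 107812 merged C/EBPα regions, 7670 (7.11%) held a stage region of every stage. The remaining regions were bound at 1 stage (42423), 2 stages (28064), 3 stages (13049) or 4 stages (16606). Because C/EBPα peaks chose these regions, their C/EBPα values below are descriptions and carry no test.

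C/EBPα is a basic leucine zipper transcription factor that binds DNA as a dimer and is required for the liver's handling of glucose, nitrogen and lipids. It is known for acting in hepatocytes beside HNF4α, a nuclear receptor that many genes of liver metabolism depend on. A factor that stays on a site from fetal to adult life may sit beside genes that are already transcribed or beside genes that become active later, and the series' title names this question as bookmarking.

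Chromatin immunoprecipitation with sequencing (ChIP-seq) used wild-type liver of F1 mice (C57Bl6/CBA), with 2 replicates of each factor at each stage. RNA sequencing covered 3 wild-type (WT) livers, 3 of the genotype C/EBPa lox/lox / Alfp-Cre (the C/EBPα knockout) and 2 of the genotype HNF4a lox/lox / Alfp-Cre (the HNF4α knockout), all on the same F1 background. The mice were untreated, the protocols name male mice, and Alfp-Cre deletes the floxed gene in the liver lineage only, so other cells of the liver keep it. The sample labels give 60 days after birth as the age of the RNA livers, whereas the design text gives E18.5. The RNA goes against the label of 60 days: Afp, a fetal serum protein that is nearly silent in adult liver, stood at 499143 to 706964 normalized reads in the WT libraries, and 14 red cell genes, which mark the blood formation of fetal liver, summed to 1053890 to 3997517. The protocols name both a standard chow and a high fat diet without saying which mice had which.

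Several libraries stood apart. The E15.5 C/EBPα lists were the shortest, with 16900 and 13434 peaks against 40636 to 121624 in the other 8 lists, so membership was mostly decided at E15.5. Both HNF4α lists of P0.5 were identical and were counted as 1, which left 9 HNF4α lists. In the E18.5 HNF4α lists 28.3% and 30.4% of peaks met an HNF4α peak of another stage, against 68.4% to 98.5% in the other lists. Of the RNA libraries, the HNF4α knockout replicate 1 held skeletal muscle transcripts: 12 muscle genes tested summed to 642855 normalized reads there, and to 90 to 1282 in the other 7 libraries, all but 1 of them genes with no region bound at every stage.

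Promoters of 6 genes whose start lay in a region bound at every stage and whose RNA fell in the C/EBPα knockout are shown first, since they show how the letters of a C/EBP site sit near the start of such genes. Each runs 5′ to 3′ over 300 bases, from 250 before the RefSeq start to 50 after it (build GRCm38.p6), and capitals mark TTGCNNAA, the core of a C/EBP site, or CAAAGTCC, a form of the HNF4 site, on either strand. The peaks and the gene table are in the older build mm9, and genes were matched by symbol, so the RefSeq start may differ from the start used for the regions. Saa4 encodes a serum amyloid A apolipoprotein (chr7:46732554-46732853, minus strand). Cyp2a5 encodes the coumarin hydroxylase (chr7:26835089-26835388, plus strand), Ugt2b5 a glucuronosyltransferase (chr5:87140291-87140590, minus strand) and C3 the central complement component (chr17:57228087-57228386, minus strand). Fga encodes the fibrinogen alpha chain (chr3:83025903-83026202, plus strand) and Aldh8a1 an aldehyde dehydrogenase (chr10:21377050-21377349, plus strand).
Saa4: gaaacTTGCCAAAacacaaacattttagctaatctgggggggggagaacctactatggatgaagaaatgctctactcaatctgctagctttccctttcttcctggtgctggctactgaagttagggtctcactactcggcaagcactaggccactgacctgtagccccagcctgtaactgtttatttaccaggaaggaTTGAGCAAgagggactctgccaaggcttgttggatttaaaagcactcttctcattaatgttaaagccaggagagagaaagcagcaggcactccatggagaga
Cyp2a5: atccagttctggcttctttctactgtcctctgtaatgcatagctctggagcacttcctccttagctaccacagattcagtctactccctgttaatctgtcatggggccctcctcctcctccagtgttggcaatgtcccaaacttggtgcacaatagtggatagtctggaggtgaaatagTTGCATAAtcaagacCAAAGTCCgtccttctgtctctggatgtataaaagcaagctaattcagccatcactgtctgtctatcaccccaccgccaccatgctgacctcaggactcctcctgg
Ugt2b5: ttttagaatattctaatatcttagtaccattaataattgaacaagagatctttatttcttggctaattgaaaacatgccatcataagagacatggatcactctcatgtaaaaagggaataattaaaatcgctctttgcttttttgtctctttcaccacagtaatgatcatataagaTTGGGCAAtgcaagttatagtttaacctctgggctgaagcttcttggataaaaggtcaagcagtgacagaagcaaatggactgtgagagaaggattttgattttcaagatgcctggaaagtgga
C3: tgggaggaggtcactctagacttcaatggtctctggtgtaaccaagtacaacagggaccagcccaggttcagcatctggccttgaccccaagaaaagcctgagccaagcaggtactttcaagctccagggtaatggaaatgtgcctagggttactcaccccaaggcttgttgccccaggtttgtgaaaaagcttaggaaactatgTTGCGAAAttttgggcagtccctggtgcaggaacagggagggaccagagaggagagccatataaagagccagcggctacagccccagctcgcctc
Fga: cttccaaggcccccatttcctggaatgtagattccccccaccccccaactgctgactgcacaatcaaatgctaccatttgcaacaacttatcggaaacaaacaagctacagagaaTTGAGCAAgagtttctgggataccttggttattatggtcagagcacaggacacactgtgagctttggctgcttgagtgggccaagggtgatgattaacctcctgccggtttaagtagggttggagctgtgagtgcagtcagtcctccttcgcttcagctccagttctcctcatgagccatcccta
Aldh8a1: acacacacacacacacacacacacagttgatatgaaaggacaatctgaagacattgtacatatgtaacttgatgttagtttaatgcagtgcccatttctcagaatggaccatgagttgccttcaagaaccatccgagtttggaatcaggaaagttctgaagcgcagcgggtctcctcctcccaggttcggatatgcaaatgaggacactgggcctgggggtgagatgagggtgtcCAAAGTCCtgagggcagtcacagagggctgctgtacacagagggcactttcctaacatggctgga

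Saa4 held the C/EBP letters in 2 places, beginning 245 and 52 bases before the start. In Cyp2a5 they began 71 bases before the start, with CAAAGTCC following at 56 bases. The matches in Ugt2b5, C3 and Fga began 74, 45 and 135 bases before the start, and Aldh8a1 held no C/EBP match but had CAAAGTCC at 15 bases. Of the 4 other promoters selected by the same rule, Akr1d1 held TTGCNNAA 8 bases before the RefSeq start, and Inhbe, Cebpa and Fgg held neither motif in these 300 bases.

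Over the genes tested for RNA, 847 had their start inside a region bound at every stage, and 642 of them (75.8%) had a RefSeq promoter. That is under 80%, so as a check over all 847 genes the shares that follow are void, and they describe the matched promoters only. TTGCNNAA was present in 165 of the 642 promoters (25.7%), against 16.5% of 1152 promoters whose start lay in a region of the 4 later stages, 5.93% of 7554 whose start lay in no C/EBPα region and 10.7% of all 27025 promoters in the table. The full palindrome TTGCGCAA, which TTGCNNAA includes, was in 19 of the 642 (2.96%) and in 0.189% of all promoters. Among the 69 matched genes whose RNA fell in the C/EBPα knockout, 35 held TTGCNNAA (50.7%), and among the 573 not called 130 did (22.7%), while TTGCGCAA was in 0 of those 69 and in 19 of the 573. CAAAGTCC was in 12 of the 642 (1.87%) and in 1.43% of all promoters, with 6 of the 12 among the 69 genes that fell (8.70%) and 6 among the 573 not called (1.05%). CAAAGGTC, the other HNF4 form searched, was in 12 (1.87%) and in 1.21%. TGTTTAC, a FOXA motif, was in 19 of the 642 (2.96%) and in 3.52% of all promoters, and the HNF1 motif in 1 and in 0.0629%. All promoters include genes not tested for RNA, whereas the 642 were all tested. Among the 11809 matched promoters of all genes tested, 8.90% held TTGCNNAA, 0.271% TTGCGCAA and 2.66% TGTTTAC. CAAAGTCC was in 1.58% of them and CAAAGGTC in 1.23%. A match of letters is a description and not a measured site.

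Width and position in part follow from the rule, since a member joins peaks of 5 stages that had to overlap, while most other regions join peaks of fewer stages. The median width of members was 921 bp (quartiles 802 and 1133), against 813 bp for 15382 regions bound at all 4 later stages and not at E15.5, and 489 bp for all 100142 other regions. Single peaks inside them were wider than the other peaks of the same list in every one of the 10 lists, by medians of 364 against 301 bp in E15.5 replicate 1 and 817 against 611 bp in P14 replicate 2. In 6541 members (85.3%) with 1 stage region per stage, the centre at a later stage lay a median of 39.0 bp (E18.5) to 48.5 bp (P60) from the centre at E15.5. The lists give no peak height, so width was the measure of a peak that could be compared.

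The share of a stage's regions that belonged to the set varied with the length of the lists. At E15.5, 7863 of 10419 stage regions (75.5%) lay in a region bound at every stage. The share was 13.1% of 65021 at E18.5, 9.13% of 94619 at P0.5, 22.3% of 34737 at P14 and 18.2% of 44217 at P60. Thus most of what was called at E15.5 was called again at each later stage, while most of what was called later had no E15.5 counterpart.

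**Figure D1:**
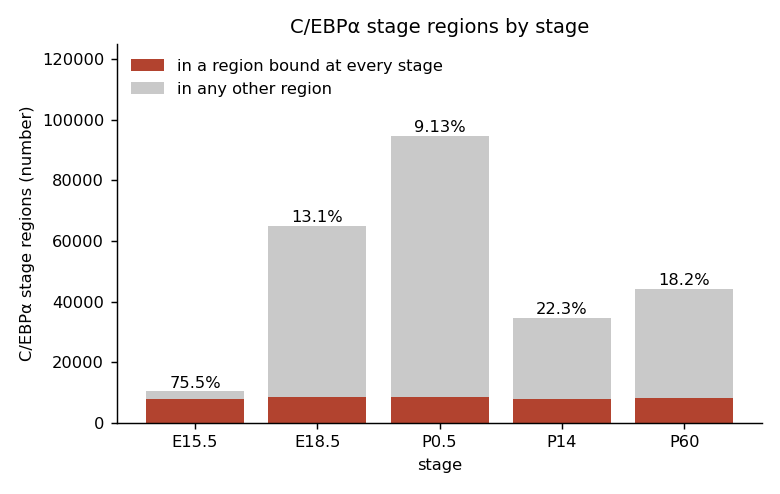
Number of C/EBPα stage regions at each stage (vertical axis), split into those in a region bound at every stage (red) and those in any other region (grey). The percentage over each bar is the red share, 75.5% at E15.5 and 9.13% to 22.3% at the later stages.

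The edge of the rule lay at E15.5. Inside it, the smallest overlap of replicate peaks over the 5 stages had a median of 283 bp per region, and in 7 members it was under 100 bp. Just outside were 3864 regions bound at the 4 later stages that met a peak of only 1 of the E15.5 lists, and 20 that met E15.5 peaks of both replicates that did not overlap each other. A further 11498 regions of the 4 later stages met no E15.5 peak. Of the members, 18 were wider than 5 kb and reached 55484 bp, and 4 lay on chromosome Y.

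Members were found both at gene starts and far from them. A gene start lay inside 829 of them (10.8%), 16.6% lay within 1 kb of a start, 43.2% within 10 kb and 19.9% beyond 50 kb. For the regions of the 4 later stages the shares at a start, within 1 kb and within 10 kb were 9.33%, 15.7% and 41.7%, and for all other regions 4.83%, 10.7% and 37.0%. The centre of 57.8% of members lay within a gene. The median gap to the next member on a chromosome was 92.9 kb, and 12.9% of gaps were at most 10 kb.

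HNF4α peaks, which the rule did not use, lay at the centre of more of the regions bound at every stage than of other C/EBPα regions. Over the central 300 bp, 64.9% and 57.9% of members met a peak of the E15.5 HNF4α lists, 31.3% and 26.7% of the E18.5 lists, 49.4% of the P0.5 list, 55.7% and 56.9% of the P14 lists, and 69.0% and 73.2% of the P60 lists. Among all other C/EBPα regions the shares ranged from 6.11% to 27.3%, and among those bound at the 4 later stages only from 14.7% to 65.1%. The members were higher in 9 of 9 lists in both comparisons.

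The mean difference over lists was 37.5 ± 9.32 percentage points (SD, n = 9) against all other regions and 15.4 ± 7.18 (SD, n = 9) against those of the 4 later stages. Each gave p = 0.003906 in an exact 2-sided sign-flip permutation test over lists (adjusted p = 0.003906 over 2 tests, the smallest value 9 lists allow). Against the 4 later stages the difference was largest in the E15.5 lists, at 28.0 and 26.8 points, and 8.11 to 16.7 in the others. The lists of a stage are replicates of one another, and with 1 mean per stage the exact test cannot go below p = 0.0625, which both comparisons gave. Without the E18.5 lists the differences were 41.9 and 16.2 points (exact permutation p = 0.01562, n = 7). Among the regions just outside the rule, the mean share with HNF4α was 42.4% where 1 E15.5 list had a peak and 37.1% where neither had, against 53.9% in members.

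**Figure D2:**
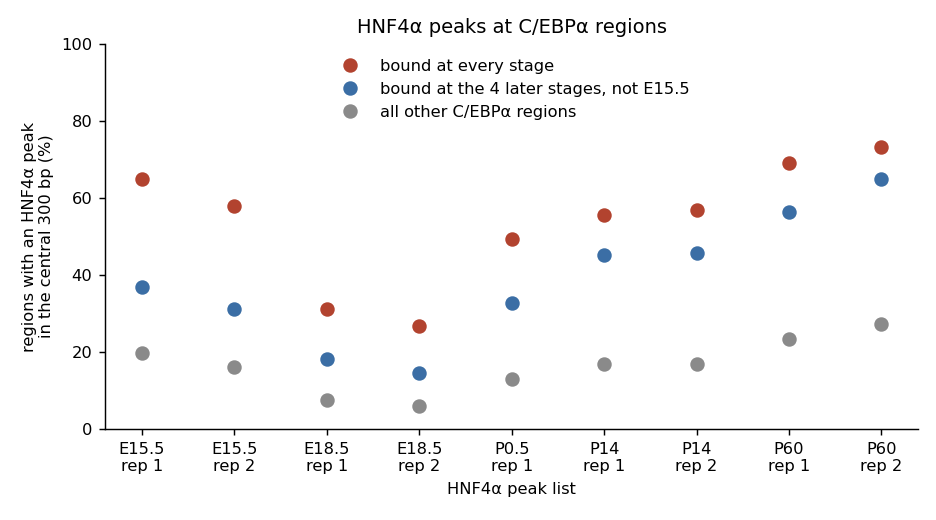
Share of C/EBPα regions with an HNF4α peak in their central 300 bp (vertical axis, percent) for each of the 9 distinct HNF4α peak lists (horizontal axis), for regions bound at every stage (red), at the 4 later stages only (blue) and all others (grey). The red points lie highest in every list, and both E18.5 lists lie lowest for all 3 classes of region.

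Among themselves the members ranged from full to no overlap with HNF4α. In 1365 (17.8%) the centre met a peak of all 9 lists, and in 1228 (16.0%) it met none. Leaving the E18.5 lists aside, 2745 (35.8%) met all 7 others and 1236 (16.1%) met none. At least 1 HNF4α list had a peak at 84.0% of members, 72.0% of the regions of the 4 later stages and 37.7% of all others. The 18 members over 5 kb wide met 2 or more HNF4α lists each.

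RNA in the knockouts was compared gene by gene with limma on log2(value + 1), where the values are the submitters' normalized reads, a gene was tested if it reached 10 in at least 2 libraries, and a call needs an adjusted p under 0.05 over all 17771 genes tested. Of 4259 genes in the table with a start within 10 kb of a region bound at every stage, 3034 passed this filter. Both knockouts were compared with the same 3 WT libraries, so their results are given side by side without a measure of their agreement. In whole liver, fewer cells of a type and less RNA per cell cannot be told apart. The labels do not say whether the RNA replicates came from separate animals, so the p-values measure the spread between these libraries, which may be technical.

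The deletion itself was seen in the RNA. Cebpa had 9999, 9594 and 5511 normalized reads in WT, 322, 419 and 998 in the C/EBPα knockout, and 3886 and 4500 in the HNF4α knockout. The C/EBPα knockout lay below WT without overlap, by a log2 change of -3.98 ± 0.44 (SE; limma adjusted p = 0.000413). A region bound at every stage spanned the start of Cebpa itself (chr7:35903755-35904637, mm9), 883 bp wide, and met 6 of the 9 HNF4α lists. Hnf4a had no such region within 10 kb. Its levels were 9098, 4948 and 6718 in WT, 2492, 2530 and 4510 in the C/EBPα knockout, below every WT library but not called (log2 change -1.14 ± 0.40 SE, limma adjusted p = 0.188), and 1238 and 2444 in the HNF4α knockout (log2 change -1.95 ± 0.45 SE, limma adjusted p = 0.033), a call that was lost without the HNF4α knockout replicate 1, WT replicate 1 or WT replicate 3.

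Genes near the regions bound at every stage were more often lower than higher in the C/EBPα knockout. Of the 3034 genes, 266 fell (8.77%, where 2.86% of all genes tested fell) and 11 rose (0.363%, where 0.883% of all rose and 3.75% of all were called either way), with a median log2 change of -0.19 against 0.03 over all genes tested. These 266 were 52.3% of all 509 genes that fell. By comparison, 147 of 3899 genes near a region of the 4 later stages and no region of every stage fell (3.77%), as did 223 of 11305 genes near other C/EBPα regions only (1.97%) and 20 of 3432 genes with no C/EBPα region within 10 kb (0.583%). In that last group 42 rose (1.22%). No test of the difference between these groups of genes was made.

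The share of genes falling was higher with more regions within 10 kb, and differed less by their place. One region within 10 kb went with 7.81% of 2585 genes falling, 2 regions with 13.3% of 390, and 3 or more with 12 of 59 (20.3%), whose median log2 change was -1.07. Of 847 genes with the start inside a region, 90 fell (10.6%) and 0 rose in limma's test, against 23 higher and 187 lower at an unadjusted p under 0.05. Of 2187 genes with a region within 10 kb but not at the start, 176 fell (8.05%). The median log2 change was -0.18 with the start inside and -0.19 without. Where the start lay in a region of the 4 later stages, 110 of 1466 fell (7.50%). The count depends on single libraries: 143 of 3000 genes fell without WT replicate 1 (4.77%, where 1.45% of all genes fell) and 3 rose (0.1%, background 0.318%). Without WT replicate 2, 176 fell (5.87%, background 1.83%). Without C/EBPα knockout replicate 2, 6 rose (0.199%, background 0.540%).

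Scaling moved the balance. With values divided by library totals, which were 13448347 to 16424919 normalized reads in the C/EBPα knockout and 20375967 to 22457655 in WT, the median of all genes shifted to a log2 change of 0.53 and that of the 3034 genes to 0.31. Then 176 of them fell (5.80%, background 1.82%) and 47 rose (1.55%, background 2.67%), so that falls made up 78.9% of their calls in place of 96.0%.

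Of the same 3034 genes, more were called lower than higher in the HNF4α knockout. There 234 fell (7.71%, where 3.17% of all genes tested fell) and 37 rose (1.22%, where 1.54% of all rose and 4.7% of all were called either way), with a median log2 change of -0.20 against 0.02. Without the HNF4α knockout replicate 1, which held the muscle transcripts, 93 fell (3.09%, background 1.22%) and 3 rose (0.0996%, background 0.143%), without replicate 2 136 fell, and without WT replicate 1 128 fell. Those 128 were 4.27% of the genes in that fit, where 1.63% of all genes fell. Without WT replicates 1, 2 and 3 the 37 rises became 8 (0.267%, background 0.477%), 19 (0.633%, background 0.963%) and 14 (0.464%, background 0.732%). Without C/EBPα knockout replicate 3 they became 75 (2.49%, background 3.30%). Stellate cell and fibroblast markers moved in the same comparison: 4 of 12 rose, none with a region bound at every stage, and their sum was 41726 to 98984 normalized reads in the HNF4α knockout and 13823 to 21112 in WT. Red cell genes summed to 4078109 to 6973699 in the HNF4α knockout and 1053890 to 3997517 in WT, with none of 14 called and 3 of them near a region bound at every stage. Macrophage markers summed to 39285 to 46541 in the HNF4α knockout and 21755 to 24955 in WT, with 1 of 12 called higher, the member near a region bound at every stage. Neutrophil markers summed to 103948 to 114458 against 46998 to 69556, with none of 12 called. The part of these other cells' transcripts in the result was not tested.

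Overlap with HNF4α split the genes further. Where a region bound at every stage within 10 kb met all 9 HNF4α lists, 85 of 593 genes fell in the C/EBPα knockout (14.3%) and 86 in the HNF4α knockout (14.5%). Where no such region met any HNF4α list, 4 of 449 fell in each knockout (0.891%), while 3 rose in the C/EBPα and 13 in the HNF4α knockout (2.90%, background 1.54%). Those 13 rises became 0 without the HNF4α knockout replicate 1, 3 without WT replicate 1, 7 without WT replicate 2, WT replicate 3 or C/EBPα knockout replicate 1, and 21 without C/EBPα knockout replicate 3. With exactly 1 region within 10 kb the shares falling in the C/EBPα knockout were 14.1% of 417 genes and 0.907% of 441. Setting the E18.5 HNF4α lists aside gave 162 of 1137 (14.2%) and 4 of 452 (0.885%). Without WT replicate 1 the C/EBPα knockout counts were 51 of 582 (8.76%) and 2 of 447 (0.447%), where 1.45% of all genes fell. Leaving out the HNF4α knockout replicate 1 left 1 library in that group. The median log2 changes in the HNF4α knockout were then -0.46 and 0.12, against 0.01 over all genes. With library totals, 59 of the 593 genes fell (9.95%, background 1.82%) and 8 rose (1.35%, background 2.67%) in the C/EBPα knockout, in place of 85 and 1. Of the 449 genes 2 fell (0.445%) and 10 rose (2.23%), both below the same backgrounds.

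**Figure D3:**
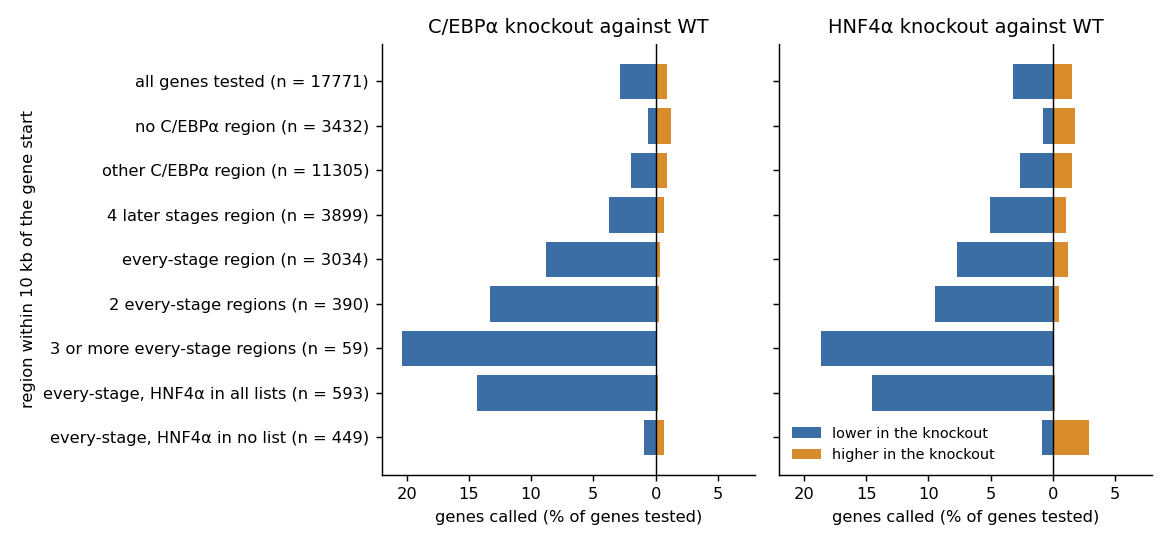
Percent of genes tested that limma called lower (blue, to the left) or higher (orange, to the right) in the C/EBPα knockout (left panel) and the HNF4α knockout (right panel), by the C/EBPα regions within 10 kb of the gene start (n is the number of genes tested). Falls are most frequent with 3 or more regions (20.3% and 18.6%) and least frequent with no C/EBPα region (0.583% and 0.758%).

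Mat1a, the liver's methionine adenosyltransferase, had the most regions of any gene tested, with 5 within 10 kb of its start, 1 of them across the start (chr14:41917723-41918919, mm9). It had 54838, 20401 and 42337 normalized reads in WT, 1225, 739 and 6109 in the C/EBPα knockout, and 6076 and 5584 in the HNF4α knockout. Both knockouts lay below every WT library. The log2 change was -4.35 ± 0.69 (SE; limma adjusted p = 0.00421) in the C/EBPα knockout and -2.63 ± 0.77 in the HNF4α knockout, where it was not called (limma adjusted p = 0.0787).

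Cps1, the entry enzyme of the urea cycle, had 4 regions, and 2 of them met all 9 HNF4α lists (chr1:67159420-67160759 and chr1:67162783-67163856, mm9, both upstream). It had 42271, 35402 and 52397 normalized reads in WT, 185, 87 and 625 in the C/EBPα knockout, and 23796 and 22966 in the HNF4α knockout. The C/EBPα knockout was far below the other groups, with a log2 change of -7.62 ± 0.59 (SE; limma adjusted p = 4.54e-05). In the HNF4α knockout the change was -0.87 ± 0.66 (limma adjusted p = 0.474), and the knockouts differed from each other by -6.75 (limma adjusted p = 0.000912).

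Other genes with 4 regions were mixed. Bnip3, which takes part in mitophagy, had 7639, 9632 and 7073 normalized reads in WT, 803, 1082 and 718 in the C/EBPα knockout and 7718 and 7507 in the HNF4α knockout. It fell in the C/EBPα knockout alone (log2 change -3.23 ± 0.31 SE, limma adjusted p = 0.000169; difference between the knockouts -3.15, limma adjusted p = 0.00176). Sdr42e1, a short-chain dehydrogenase, fell in both, to 127, 91 and 204 and to 68 and 78 from 677, 552 and 392 in WT. Its call in the C/EBPα knockout (limma adjusted p = 0.0199) did not hold when C/EBPα knockout replicate 1, its replicate 2, WT replicate 1 or WT replicate 2 was left out, and that in the HNF4α knockout (limma adjusted p = 0.0047) without HNF4α knockout replicate 1. Tmbim6, which protects cells from endoplasmic reticulum stress, and Trib1, a pseudokinase that directs the breakdown of C/EBP proteins, were not called in the C/EBPα knockout, with log2 changes of -1.25 ± 0.50 and -1.17 ± 0.41 (SE; limma adjusted p = 0.262 and 0.177). Neat1, Hjurp, Dhrs7b, Gm9783 and Gm10800 were not called in either knockout, and Gm15726 was too low to test. Neat1 and Gm9783 shared the same 4 regions. Those of Gm10800 met 8 or 9 HNF4α lists each. The one across its start had E15.5 peaks of 1374 and 1312 bp, where the list medians were 329 and 317 bp. Input samples were not used here, so signal there that does not come from the antibody was not tested.

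**Figure D4:**
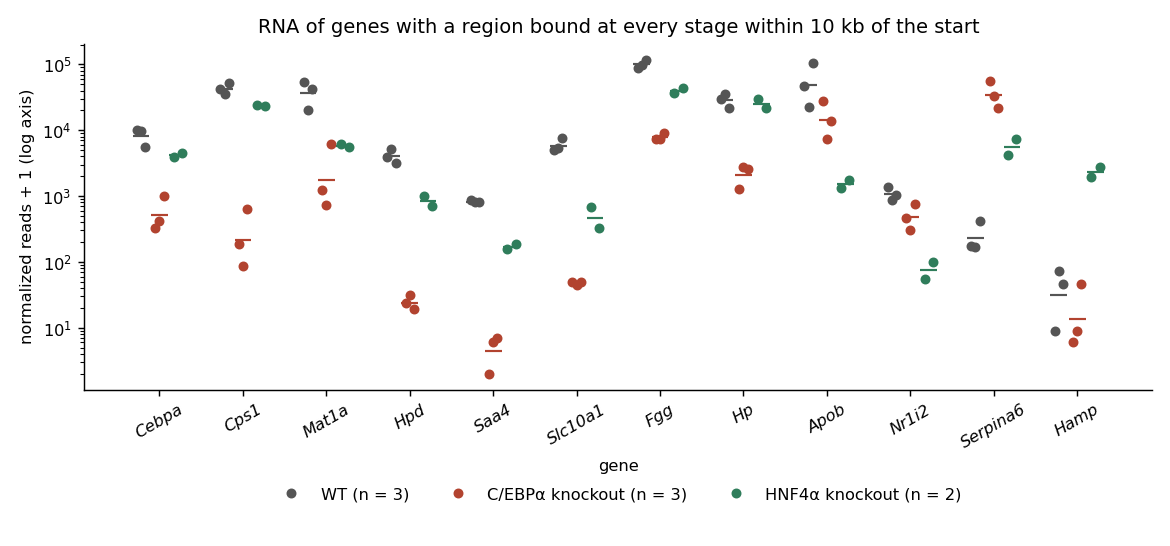
Normalized reads plus 1 (vertical log axis) of 12 genes with a region bound at every stage within 10 kb, with 1 point per library for WT (grey), the C/EBPα knockout (red) and the HNF4α knockout (green), and a line at each geometric mean. Cps1 and Saa4 are lowest in the C/EBPα knockout, Apob and Nr1i2 in the HNF4α knockout, while Serpina6 is higher than WT in both knockouts and Hamp in the HNF4α knockout.

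The liver gene lists were read by whether a member had a region bound at every stage within 10 kb. Over 17 lists of liver functions 357 genes were tested and 169 had such a region (47.3%, where 17.1% of all genes tested did). Of these 169, 84 fell in the C/EBPα knockout and 66 in the HNF4α knockout, and of the 188 without one 45 and 51 did. Over all genes tested 2.86% and 3.17% fell and 0.883% and 1.54% rose, which is the background of every list count that follows. Falls were thus also more frequent than background among list genes without a region. The difference between list genes with and without a region was not tested, and falls in both are given for most lists that follow. In the cell cycle list 2 of 25 genes tested had a region, and 0 of these were called in either knockout. Of the 23 without one, 3 rose in the C/EBPα knockout. Of the other cell types, 0 of 12 endothelial, 0 of 12 stellate and 0 of 8 bile duct genes tested had a region, as did 1 of 12 macrophage, 1 of 12 neutrophil, 1 of 12 muscle, 1 of 9 lymphocyte and 3 of 14 erythroid genes (21.4%).

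Of 34 genes of nitrogen and amino acid handling tested 20 had a region, and 17 of these fell in the C/EBPα knockout and 12 in the HNF4α knockout, with median log2 changes of -3.75 and -2.32. Of the 14 without a region 5 and 6 fell. Hpd, which degrades tyrosine, had 3879, 5179 and 3219 normalized reads in WT, 23, 30 and 18 in the C/EBPα knockout and 1014 and 716 in the HNF4α knockout. No library of either knockout reached the WT range, and the log2 changes were -7.38 ± 0.34 and -2.23 ± 0.38 (SE; limma adjusted p = 4.08e-06 and 0.00713), the second lost without either HNF4α knockout replicate. Its region lay inside the gene, 489 bp from the start (chr5:123631150-123632245, mm9), and met all 9 HNF4α lists. Cth, which makes cysteine, went from 4518, 4994 and 4755 in WT to 328, 123 and 306 in the C/EBPα knockout and 1294 and 935 in the HNF4α knockout (log2 change -4.36 ± 0.39 SE, limma adjusted p = 0.000113, in the first). Its call in the HNF4α knockout (limma adjusted p = 0.019) was lost without either of that group's replicates or any 1 WT library. Aldh8a1, which acts in tryptophan breakdown, had 1575, 1368 and 1464 in WT, 10, 3 and 14 in the C/EBPα knockout and 52 and 50 in the HNF4α knockout, with log2 changes of -7.40 ± 0.52 and -4.82 ± 0.58 (SE; limma adjusted p = 2.75e-05 and 0.000943). Got1, an aspartate aminotransferase, fell in the C/EBPα knockout, from 2778, 4052 and 1120 to 293, 275 and 235 (limma adjusted p = 0.0019), and had 2212 and 1619 in the HNF4α knockout.

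Of the 18 glucose and glycogen genes tested 10 had a region, and 8 of these fell in the C/EBPα and 5 in the HNF4α knockout, against 6 and 3 of the 8 without one. G6pc, the catalytic subunit that releases glucose from the liver, had 5442, 3833 and 7562 normalized reads in WT, 164, 191 and 1564 in the C/EBPα knockout and 140 and 212 in the HNF4α knockout. Both knockouts lay below WT, with log2 changes of -3.88 ± 0.71 and -4.96 ± 0.80 (SE; limma adjusted p = 0.0107 and 0.0047), calls lost without C/EBPα knockout replicate 1 or WT replicate 1 and without HNF4α knockout replicate 1. Slc37a4, the transporter that feeds it, fell in the C/EBPα knockout (16637, 12148 and 6131 in WT against 992, 1027 and 1122; limma adjusted p = 0.00143). Pygl, liver glycogen phosphorylase, had a region upstream that met all 9 HNF4α lists (chr12:71334281-71335364, mm9) and was called in neither knockout.

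Of 19 bile acid genes tested 8 had a region, and 7 of these fell in the C/EBPα and 6 in the HNF4α knockout, with median log2 changes of -5.06 and -3.88. Of the 11 without a region 7 and 9 fell, with medians of -3.13 and -3.30, so falls were also common there. Slc10a1, the bile acid importer, had 4981, 5286 and 7541 normalized reads in WT, 48, 44 and 48 in the C/EBPα knockout and 673 and 323 in the HNF4α knockout (log2 changes -6.94 ± 0.35 and -3.64 ± 0.39 SE; limma adjusted p = 5e-06 and 0.000614). Cyp8b1, which sets the cholic acid share, went from 4224, 4197 and 4367 to 45, 38 and 242 and to 287 and 164 (limma adjusted p = 0.000262 and 0.00408). Akr1d1, a steroid reductase of bile acid synthesis, had 1881, 1306 and 2286 in WT, 32, 9 and 49 in the C/EBPα knockout and 470 and 504 in the HNF4α knockout, and was called in the first (limma adjusted p = 9.8e-05) and not in the second (limma adjusted p = 0.108). Nr1h4, the bile acid receptor, had a region 966 bp from its start (chr10:88994638-88995364, mm9) that met all 9 HNF4α lists, and it fell from 1343, 1285 and 895 to 133, 100 and 140 and to 93 and 166 (limma adjusted p = 0.000476 and 0.00124).

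Among the secreted proteins, 9 of 13 coagulation genes with a region fell in the C/EBPα knockout and 5 in the HNF4α knockout, against 3 and 4 of the 9 without one. Of 8 complement genes with a region 2 and 5 fell, and of the 11 without one 5 and 6. Of 14 plasma carriers with a region 4 and 0 fell (3 lower and 2 higher at an unadjusted p under 0.05 in limma's test of the HNF4α knockout), and of the 5 without one 1 and 0. Of the 14, 1 was called higher in each knockout. Fgg, the fibrinogen gamma chain, with 3 regions, had 87161, 96127 and 117609 normalized reads in WT, 7454, 7236 and 8918 in the C/EBPα knockout and 36093 and 43033 in the HNF4α knockout (log2 change -3.67 ± 0.46 SE, limma adjusted p = 0.000986, in the first; not called in the second). F11, a clotting factor, fell in both, from 2987, 2369 and 3396 to 432, 244 and 563 and to 640 and 897 (limma adjusted p = 0.00106 and 0.0207), the second lost without either HNF4α knockout replicate or WT replicate 1 or 3. C3 had 64013, 39159 and 92278 in WT, 5997, 1369 and 15325 in the C/EBPα knockout and 18269 and 40575 in the HNF4α knockout, and its C/EBPα call (limma adjusted p = 0.0268) was lost without C/EBPα knockout replicate 1 or any 1 WT library. Fga, at 256854, 163500 and 234654 in WT and 14509, 9164 and 48182 in the C/EBPα knockout (limma adjusted p = 0.0191), lost its call without C/EBPα knockout replicate 1 or 2 or WT replicate 1 or 3.

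Alb, which encodes albumin, carried a region across its start (chr5:90889251-90890226, mm9) that met all 9 HNF4α lists and a second one upstream. It had 2758855, 1491169 and 3098691 normalized reads in WT, 670004, 127285 and 559934 in the C/EBPα knockout and 430946 and 863323 in the HNF4α knockout. All knockout libraries lay below WT, and the log2 change of -2.69 ± 1.51 (SE) in the C/EBPα knockout did not pass the test (limma adjusted p = 0.485). Afp, the fetal serum protein next to it, with 2 regions upstream, had 625821, 499143 and 706964 in WT and 381833, 97621 and 349858 in the C/EBPα knockout (log2 change -1.36 ± 1.09 SE, limma adjusted p = 0.665). No member of the fetal list with a region, 4 of 16 tested, was called in limma's test of the C/EBPα knockout, and 1 was lower at an unadjusted p under 0.05. Of the 12 without a region, 1 was called higher in that knockout and 0 lower.

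Of the 12 acute phase genes with a region 7 fell in the C/EBPα knockout and 3 in the HNF4α knockout, and of the 2 without one 2 and 1. Saa4 had 862, 803 and 798 normalized reads in WT, 1, 5 and 6 in the C/EBPα knockout and 155 and 186 in the HNF4α knockout. The C/EBPα knockout was near 0 and the HNF4α knockout between the groups, with log2 changes of -7.55 ± 0.53 and -2.27 ± 0.59 (SE; limma adjusted p = 2.75e-05 and 0.0546). Its region spanned the start (chr7:53987649-53988453, mm9). Hp, haptoglobin, fell in the C/EBPα knockout, from 29620, 36045 and 21660 to 1298, 2755 and 2537 (log2 change -3.77 ± 0.42 SE, limma adjusted p = 0.000476), while the HNF4α knockout, at 29374 and 21900, overlapped WT (difference between the knockouts -3.60, limma adjusted p = 0.00294). Pon1, a lipoprotein-bound esterase, followed the same order, with 1995, 2055 and 2664 in WT, 30, 3 and 22 in the C/EBPα knockout and 830 and 1648 in the HNF4α knockout (limma adjusted p = 0.000121 and 0.501).

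Of 38 cytochrome P450 and other xenobiotic genes tested 20 had a region, and 15 of these fell in each knockout, against 8 and 11 of the 18 without one. Cyp3a25 had 1616, 1188 and 1093 normalized reads in WT, 5, 0 and 11 in the C/EBPα knockout and 7 and 19 in the HNF4α knockout (log2 changes -8.27 ± 0.82 and -6.66 ± 0.92 SE; limma adjusted p = 0.000213 and 0.00208). Cyp2a5 went from 484, 319 and 2482 to 3, 14 and 6 in the C/EBPα knockout (limma adjusted p = 0.000561) and to 102 and 67 in the HNF4α knockout (limma adjusted p = 0.0634). Ugt2b5 fell from 1240, 1215 and 1109 to 68, 46 and 26 and to 155 and 195 (limma adjusted p = 7.49e-05 and 0.00484), the second lost without HNF4α knockout replicate 1. The Cyp2a, Cyp3a and Ugt2b families hold near-identical copies, so the split of reads among their members is uncertain. For genes near 0 the size of a log2 change depends on the added 1.

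Among the lipid genes, in fatty acid and triglyceride synthesis 4 of 10 genes with a region fell in each knockout, in fatty acid oxidation 2 of 10 fell and 1 rose in the C/EBPα knockout and 4 fell in the HNF4α knockout, and among apolipoproteins 5 and 2 of 12 fell. Without a region, 1 and 0 of 11 synthesis genes, 2 and 4 of 15 oxidation genes, and 2 and 2 of 10 apolipoproteins fell. In cholesterol synthesis 0 of 7 were called in limma's test of the C/EBPα knockout, with 1 lower at an unadjusted p under 0.05, and 1 of the 11 without a region fell. Apob, the structural protein of very low density lipoprotein, had 47448, 22214 and 105213 normalized reads in WT, 28066, 7325 and 13792 in the C/EBPα knockout and 1347 and 1768 in the HNF4α knockout. It fell in the HNF4α knockout (log2 change -4.96 ± 0.70 SE, limma adjusted p = 0.00242) and overlapped WT in the C/EBPα knockout (-1.76 ± 0.63, limma adjusted p = 0.194; difference between the knockouts 3.20, limma adjusted p = 0.0337). Elovl2, an elongase of polyunsaturated fatty acids, fell in both and further in the HNF4α knockout, from 6779, 5323 and 7814 to 1832, 1275 and 1235 and to 275 and 373 (limma adjusted p = 0.00216 and 0.000171; difference 2.15, limma adjusted p = 0.00856). Apoc1 fell in the C/EBPα knockout alone, from 4388, 8714 and 2046 to 315, 224 and 1015 (limma adjusted p = 0.009), and had 7656 and 7393 in the HNF4α knockout (difference -4.18, limma adjusted p = 0.00781).

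**Figure D5:**
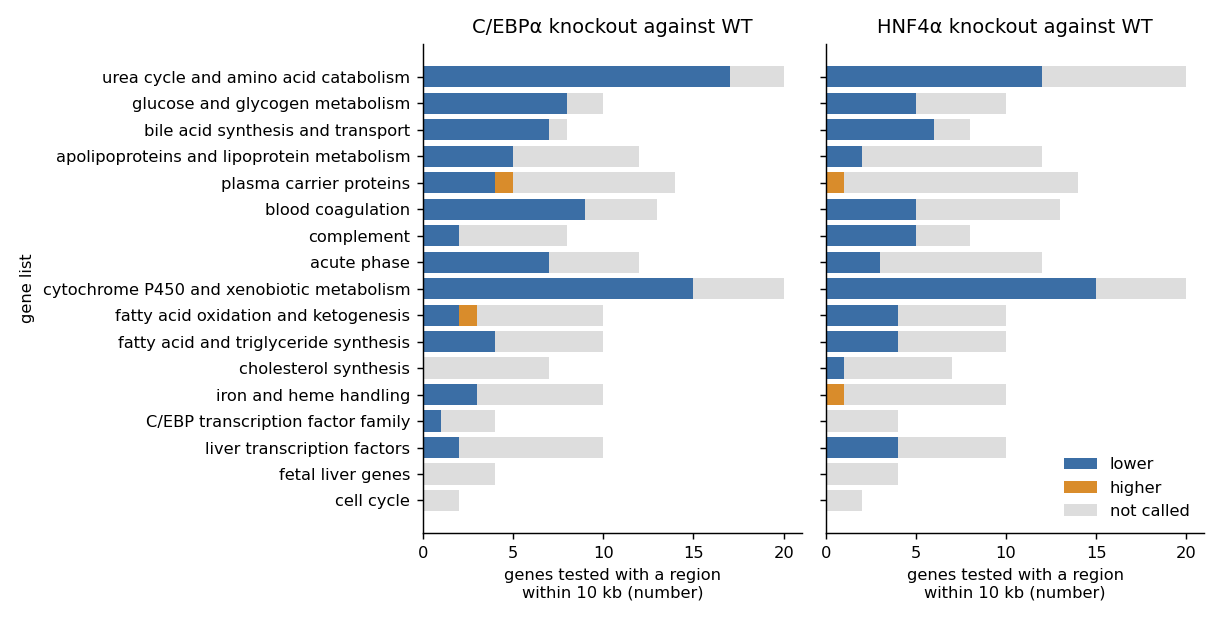
Number of tested genes with a region bound at every stage within 10 kb (horizontal axis) in 17 lists of liver functions, split into lower (blue), higher (orange) and not called (grey) by limma in the C/EBPα knockout (left panel) and the HNF4α knockout (right panel). The amino acid list shows 17 of 20 lower on the left and 12 of 20 on the right, and no gene of the cholesterol synthesis list is called on the left.

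In iron handling 3 of 10 genes with a region fell in the C/EBPα knockout, and 1 rose in the HNF4α knockout, while of the 8 without one 0 and 1 fell. Of these 8, 1 also rose in the HNF4α knockout. Hfe2, which encodes the hemojuvelin co-receptor, had 1933, 1719 and 1694 normalized reads in WT, 5, 2 and 36 in the C/EBPα knockout, and 2301 and 130 in the HNF4α knockout, whose replicates disagreed. The C/EBPα change was -7.67 ± 1.02 (SE; limma adjusted p = 0.00152). Hamp, the iron hormone hepcidin, whose start lies 1237 bp from a region (chr7:31730273-31730959, mm9), had 8, 72 and 46 in WT, 5, 8 and 45 in the C/EBPα knockout and 1924 and 2780 in the HNF4α knockout. Only the HNF4α knockout stood above WT (log2 change 6.20 ± 0.99 SE, limma adjusted p = 0.00454; difference between the knockouts -7.42, limma adjusted p = 0.00296). Cp, the plasma ferroxidase, fell in the C/EBPα knockout alone, from 5093, 4082 and 6200 to 322, 390 and 1238 (limma adjusted p = 0.0024), with 4121 and 3607 in the HNF4α knockout (difference -2.84, limma adjusted p = 0.0146).

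Among the regulators, 10 of 28 liver transcription factor genes tested and 4 of 7 C/EBP family genes had a region. Of the 10, 2 fell in the C/EBPα knockout (Nr1h4 and Nr1i3) and 4 in the HNF4α knockout (both of these, Nr1i2 and Prox1), and of the 18 without a region 2 and 4 fell. Of those 18, 1 rose in the C/EBPα knockout. Nr1i2, the xenobiotic receptor PXR, had 1372, 872 and 1048 normalized reads in WT, 465, 304 and 750 in the C/EBPα knockout and 55 and 97 in the HNF4α knockout (limma adjusted p = 0.172 and 0.000871; difference 2.68, limma adjusted p = 0.0103). Nr1i3, the related receptor CAR, went from 659, 530 and 1129 to 27, 8 and 146 and to 27 and 26 (limma adjusted p = 0.0107 and 0.0134), calls lost without WT replicate 1 or 3 and, in the HNF4α knockout, also without either of its replicates. Prox1, a hepatoblast factor whose region met no HNF4α list, fell from 1962, 1217 and 2219 to 652 and 604 in the HNF4α knockout (limma adjusted p = 0.0448), a call lost without 5 of the 8 libraries, namely C/EBPα knockout replicate 1, either HNF4α knockout replicate and WT replicates 1 and 3. Cebpb, the family member induced in the acute phase, had a region across its start (chr2:167513004-167514593, mm9) that met 8 HNF4α lists. It had 716, 1415 and 620 in WT and 277, 70 and 796 in the C/EBPα knockout, which overlap (log2 change -1.77 ± 0.75 SE, limma adjusted p = 0.297). Ddit3 and Cebpg also had regions and were not called in either knockout.

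Few genes near these regions rose. Serpina6, the corticosteroid carrier of plasma, had 173, 166 and 412 normalized reads in WT, 54960, 32605 and 21688 in the C/EBPα knockout and 4231 and 7276 in the HNF4α knockout. Every knockout library lay above WT, with log2 changes of 7.21 ± 0.47 and 4.60 ± 0.52 (SE; limma adjusted p = 2.48e-05 and 0.000739). Its region lay inside the gene, 1085 bp from the start (chr12:104892988-104894337, mm9), and met 7 HNF4α lists. A second gene on the same chromosome, Gm46, was listed at 0 in all WT libraries, while the C/EBPα knockout libraries had 50, 75 and 7 (limma adjusted p = 0.0262), a call lost without any 1 WT library. Gm46 passed the filter through knockout libraries only and could not have fallen, so the direction of its call was fixed beforehand.

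Cldn6, a tight junction claudin, had 24, 8 and 43 normalized reads in WT and 203, 202 and 961 in the C/EBPα knockout (log2 change 3.99 ± 0.74 SE, limma adjusted p = 0.011). Meg3, an imprinted RNA, rose from 6854, 9346 and 8537 to 34113, 54550 and 52299 (limma adjusted p = 0.00672), a call lost without WT replicate 1. Tmprss2, Tmem86a, Amt, Acot1, Gm15580 and Trim71 also rose, with log2 changes from 1.52 (Acot1) to 4.03 (Gm15580), and each lost its call when 1 or more libraries were left out. WT replicate 1 was among these for all 6, C/EBPα knockout replicate 1 for all but Tmem86a, and for Amt any 1 of the 8 libraries ended the call. Bile duct markers rose in the same comparison: 4 of 8 tested were called higher, and their sum was 9179 to 11374 normalized reads in the C/EBPα knockout and 1551 to 3018 in WT. None of the 8 had a region bound at every stage, and their part in these rises was not tested.

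In the HNF4α knockout, large rises with groups apart, besides those of Hamp and Serpina6, included 1110032A04Rik and Ak1. Ak1, an adenylate kinase, had 14, 21 and 15 normalized reads in WT and 2169 and 77 in the HNF4α knockout. The high value was in replicate 1, the library with the muscle transcripts, and the call (limma adjusted p = 0.035) was lost without it, without C/EBPα knockout replicate 1 or without any 1 WT library. 1110032A04Rik had 4, 5 and 1 in WT and 120 and 79 in the HNF4α knockout, and its call (limma adjusted p = 0.0148) was lost without either HNF4α knockout replicate. The part of muscle RNA in the Ak1 values was not tested. The largest falls there that passed with groups apart were Inhbe, a liver-secreted activin subunit, from 1822, 739 and 246 to 1 and 6 (limma adjusted p = 0.000912), and Serpina5, a protease inhibitor, from 304, 180 and 169 to 1 and 1 (limma adjusted p = 0.00108). Both also fell in the C/EBPα knockout (limma adjusted p = 0.00553 and 0.00154).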

How the data were processed

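C/EBPα and HNF4α peak lists and the RNA table were used as the authors deposited them, and RNA polymerase II and input samples were not used. The peak lists give positions only. The submitters' processing notes name MACS 1.4, BWA, TopHat2, Cufflinks, bedtools, DESeq and build mm9 without roles; the annotation version and strand setting are not given in the sources used here. The RNA score values are whole-number reads per gene that the authors deposited after normalization, taken from the values to be division by a size factor and rounding, so no count test was run. Library totals were 13448347 to 25992243. No column belonged to samples outside the series (0).

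Regions were built in Python 3.11.15 (numpy 2.4.6, pandas 2.3.3, scipy 1.17.1), with gene starts from the deposited table. RNA was tested with limma 3.58.1 in R 4.3.3 in 1 fit of all 8 libraries, on log2(value + 1), with Benjamini-Hochberg adjustment. On data simulated for the C/EBPα knockout comparison over 17771 genes, limma called 0% of 50 genes changed 2-fold, 30% changed 4-fold, 50% changed 8-fold and 72% changed 16-fold. RefSeq promoters were matched by symbol, the most upstream one where a gene had several.

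Named genes were the targeted genes, the 12 with the most regions within 10 kb, the largest called changes with groups that do not overlap (10 each way in the C/EBPα and 5 in the HNF4α knockout), up to 4 per pathway list by number of regions and WT level, and all C/EBP and liver transcription factor genes with a region. Not every gene so chosen is described, and 1 is not reported here. The members and lists were chosen with earlier results of these data known. Alternatives covered overlap, peak width, windows, distance, pseudocount, filter, scaling, the samples fitted, the replicate block and leaving out each library.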

Additional observations from a re-analysis of the deposited data

Results flagged for a closer look

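Of the named genes near a region bound at every stage, 15 were flagged because the knockouts differed in limma's test of the difference itself, adjusted over all genes tested. The 15 are a selection and not a count over all genes near such regions. Hp, Apoc1, Elovl2, Nr1i2, Cp and Apob, described above, also passed that test. The values here are log2 differences, C/EBPα knockout minus HNF4α knockout, and both comparisons share the WT libraries, which drop out of this difference. The C/EBPα knockout was lower for Cps1 (-6.75), Pon1 (-6.37), Hfe2 (-5.97), Saa4 (-5.29), Hpd (-5.14), Cyp2a4 (-4.18), Bnip3 (-3.15), Cebpa (-3.03) and Aldh8a1 (-2.58). Cebpa is the gene deleted in the first group. Hamp (-7.42) was also lower there, and it was called higher than WT in the HNF4α knockout and not called in the C/EBPα knockout. The C/EBPα knockout was higher for Cldn6 (3.48), Serpina6 (2.61), Tmprss2 (2.57), Amt (2.39) and Acot1 (1.84). The Hfe2 replicates of the HNF4α knockout were 2301 and 130 normalized reads.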

How the results depend on the processing

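With only the widest peaks of each list, as many as in the shortest, 1227 regions were bound at every stage, and leaving out 1 C/EBPα list gave 7671 to 10743. The HNF4α differences kept their direction under every alternative run, but not their size. With the widest peaks the difference from all other regions was 32.0 points, and that from the regions of the 4 later stages was 8.95 ± 7.05 (SD, n = 9). With 1 mean per stage they were 37.4 and 15.5 points (exact permutation p = 0.0625, the smallest 5 stages allow). Measured from the region centre, 13.4% lay within 1 kb of a start. In the central 200 bp, 19.9% of promoters held TTGCNNAA.

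Genes lower in the C/EBPα knockout numbered 85 of 557 with the widest peaks and 129 of 1251 within 1 kb, where 2.86% of all genes tested fell. With library totals they numbered 176 of 3034 (5.80%, background 1.82%). They ranged from 143 of 3000 (4.77%, background 1.45%) to 334 of 3008 (11.1%, background 3.79%) when 1 RNA library was left out. Genes higher numbered 1, 0 and 47 of the same genes, in the same order, and 53 of 7652 within 50 kb. Of all genes tested 0.883% rose, and 2.67% with library totals. Those higher numbered 3 (0.1%, background 0.318%) to 10 (0.332%, background 0.80%) with 1 RNA library left out, and 11 to 16 with 1 C/EBPα list left out. In the HNF4α knockout, 67 were lower with the widest peaks, 109 within 1 kb, 394 within 50 kb and 93 to 327 with 1 library left out. Those higher numbered 6, 11 and 114 of the same genes in the same order, where 1.54% of all genes tested rose. With 1 WT or C/EBPα knockout library left out they numbered 8 (0.267%, background 0.477%) to 75 (2.49%, background 3.30%). They numbered 65 with only the groups compared (2.14%, background 2.82%) and 22 of 3732 with no filter (background 0.811%). The cause was not tested, beyond the fewer or more genes that widest peaks and distances leave.

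With the replicate number as a block, 216 genes fell (7.12%, background 2.25%) and 7 rose (0.231%, background 0.619%) in the C/EBPα knockout. In the HNF4α knockout 151 fell (4.98%, background 1.94%) and 18 rose (0.593%, background 0.793%). The values gave no sign that the numbers pair the libraries. Deviations of same-numbered WT and C/EBPα knockout libraries correlated at -0.063, 0.19 and -0.23, and WT replicate 3 correlated best with C/EBPα knockout replicate 1 (0.49). Deviations from a group's own mean depend on one another, so these few correlations cannot exclude pairing. Of 1493 alternatives for single named genes 1312 kept the call, 175 lost it, 6 gained it and none changed direction. Leaving out both E18.5 HNF4α lists, regions over 5 kb or genes with several promoters was chosen after seeing the data.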
